A study of Xenopus laevis with 16 samples.

Results

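The Hox cluster genes of Xenopus laevis were followed in 16 RNA sequencing libraries of embryonic explants. The members were every transcript whose human symbol, as assigned in the deposited tables, was HOXA, HOXB, HOXC or HOXD followed by a number, which gave 79 of 43641 transcripts. Of these, 21 carried a HOXA symbol, 18 a HOXB, 22 a HOXC and 18 a HOXD symbol. By paralog group, 27 belonged to groups 1 to 4, 22 to groups 5 to 8 and 30 to groups 9 to 13. Xenopus laevis is allotetraploid, so most genes have an L and an S copy, marked at the end of the name, and 13 members were numbered models without a gene name of their own. In 4 members the human symbol names a different cluster than the frog name (hoxa4.L and hoxa4.S carry HOXC4, hoxc3.L and hoxc3.S carry HOXD3), so cluster and paralog assignments rest on a protein comparison.

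Hox genes encode homeodomain transcription factors that lie in clusters and specify position along the head to tail axis. Genes at one end of a cluster, those of the low paralog numbers, are switched on first and mark the hindbrain and anterior trunk, and genes of the high numbers follow later and mark the posterior trunk and tail. In vertebrate gastrulae they are first transcribed in ventral and lateral mesoderm and in posterior neural ectoderm, downstream of Wnt, FGF and retinoic acid signals and of the caudal-type homeobox (Cdx) factors.

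The tissue was the animal cap, the ectoderm at the top of the blastula, which forms epidermis when left alone. Caps came from embryos injected during early cleavage with a single mRNA, which was BMP4, FGF8 or Xnr2 at 200 pg, Chordin or Cerberus at 400 pg, or Wnt8 at 16 pg, or with Wnt8 and Xnr2 combined at these doses. Each injection has 1 library. There were 3 libraries of caps dissociated into cells and 4 of control caps. BMP4 and Wnt8 are signalling ligands, Chordin binds and blocks BMPs, Cerberus blocks BMP, Wnt and Nodal ligands, FGF8 is a fibroblast growth factor and Xnr2 is a Nodal-related inducer of mesoderm and endoderm. Caps were cut at stage 9 and collected at stage 12. A dorsal and a ventral library came from embryos divided at stage 10 and also collected at stage 12. All embryos were of the Nasco strain. Per the labels, control 1 belonged with dissociated 1, BMP4 and Chordin, control 2 with dissociated 2, control 3 with dissociated 3, Wnt8 and Cerberus, and control 4 with FGF8, Xnr2 and Wnt8 plus Xnr2. The labels do not tie the libraries to separate clutches of embryos. The spread behind every p-value here is therefore that between these samples and may be technical.

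Depth, recovered from the values, ran from 25408438 mapped reads in the ventral library to 46522450 in control 3. Values are RPKM, read counts scaled by the length of the transcript and by the mapped reads of the library, so levels can be compared between transcripts. One table listed all 79 members in controls 1 to 3 and dissociated 1 to 3. Each injected library was listed with its own control, and the dorsal with the ventral library, and those paired tables leave out transcripts that average below 1 RPKM. They listed 40 of the 79 members at least once. A member near 0 in controls is therefore listed only where a treatment raised it, so a count over the listed members had to lean upward and supports nothing by itself. The same holds for counts over marker and regulator transcripts that are near 0 in controls. Control 1 stood somewhat apart: its log2 levels correlated at 0.801 to 0.907 with those of the other controls over 14533 transcripts, against 0.857 to 0.948 among controls 2 to 4. Epidermal markers summed to 1483 RPKM in control 1, 3006 in control 2 and 2538 in control 3, while neural plate markers summed to 415, 107 and 114 RPKM and mesoderm markers to no more than 9.96. The injected mRNAs were checked where their transcripts are listed: bmp4.S had 1762 RPKM in BMP4 caps against 37.7 in control 1, wnt8a.L 12.9 in Wnt8 caps against 0.46 in control 3, the CHRD model Xelaev18029538m 2581 in Chordin caps against 0.661 in control 1, cer1.S 6208 in Cerberus caps against 0.056 in control 3, fgf8.L 170 in FGF8 caps against 0.332 in control 4, and nodal2.L 3.29 in Xnr2 caps against 0.0374 in control 4. wnt8a.L also had 58.5 RPKM in BMP4 caps and 37.0 in FGF8 caps, which were not given Wnt8 mRNA. Its level in Wnt8 caps therefore cannot tell injected mRNA from the caps' own. In the library labelled Wnt8 plus Xnr2, wnt8a.L had 77.0 RPKM against 101 in Xnr2 caps. Added Wnt8 mRNA was thus not visible over the level that Xnr2 caps reached. The labels give both libraries the same Xnr2 dose, but nodal2.L had 12.5 RPKM in the library labelled Wnt8 plus Xnr2 against 3.29 in Xnr2 caps, and nodal1.L had 5.86 against 2.01. nodal1.L, which was not injected, had 0.146 RPKM in control 4, so it rose beside nodal2.L. The nodal2.L levels therefore cannot tell injected Xnr2 mRNA from the caps' own and do not measure the dose.

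Dissociated and untouched caps were nearly silent for Hox genes. Of the 79 members, 73 stayed below 1 RPKM in each of dissociated 1 to 3 and controls 1 to 3, 2 had no read in any of them, and none averaged 1 RPKM over the 6. The level summed over all 79 members was 5.32, 12.4 and 5.01 RPKM in dissociated caps 1 to 3, against 14.8, 5.22 and 6.24 RPKM in control caps 1 to 3, so the groups overlapped. No member therefore entered the test of dissociation, in which limma called 0.145% of 15819 transcripts higher and 0.171% lower. Without the minimum level, limma tested all 79 and called 0, with 5 at an unadjusted p under 0.05 (6.33%, against 6.45% of all 43641 transcripts); voom on recovered reads, which kept the minimum, also called 0.

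Of the 6 members that reached 1 RPKM in any of these libraries, 5 belonged to paralog groups 10 to 13, the posterior end of the clusters. The other was hoxd1.S, with 1.06 RPKM in dissociated 2. hoxc12.S had 0.166, 3.34 and 0.547 RPKM in dissociated caps 1 to 3, against 1.38, 0.0598 and 0.260 in control caps 1 to 3, and a single dissociated library held the highest value. hoxd10.L had 0.295, 1.23 and 1.37 RPKM in the dissociated caps, against 0.0713, 0.0708 and 0 in the control caps. hoxa11.S, hoxc13.L and hoxc13.S reached 1.02, 1.02 and 1.00 RPKM in control 1, above controls 2 and 3 and above every dissociated library. Control 1 thus held 4 of these members above 1 RPKM and controls 2 and 3 none.

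**Figure D1:**
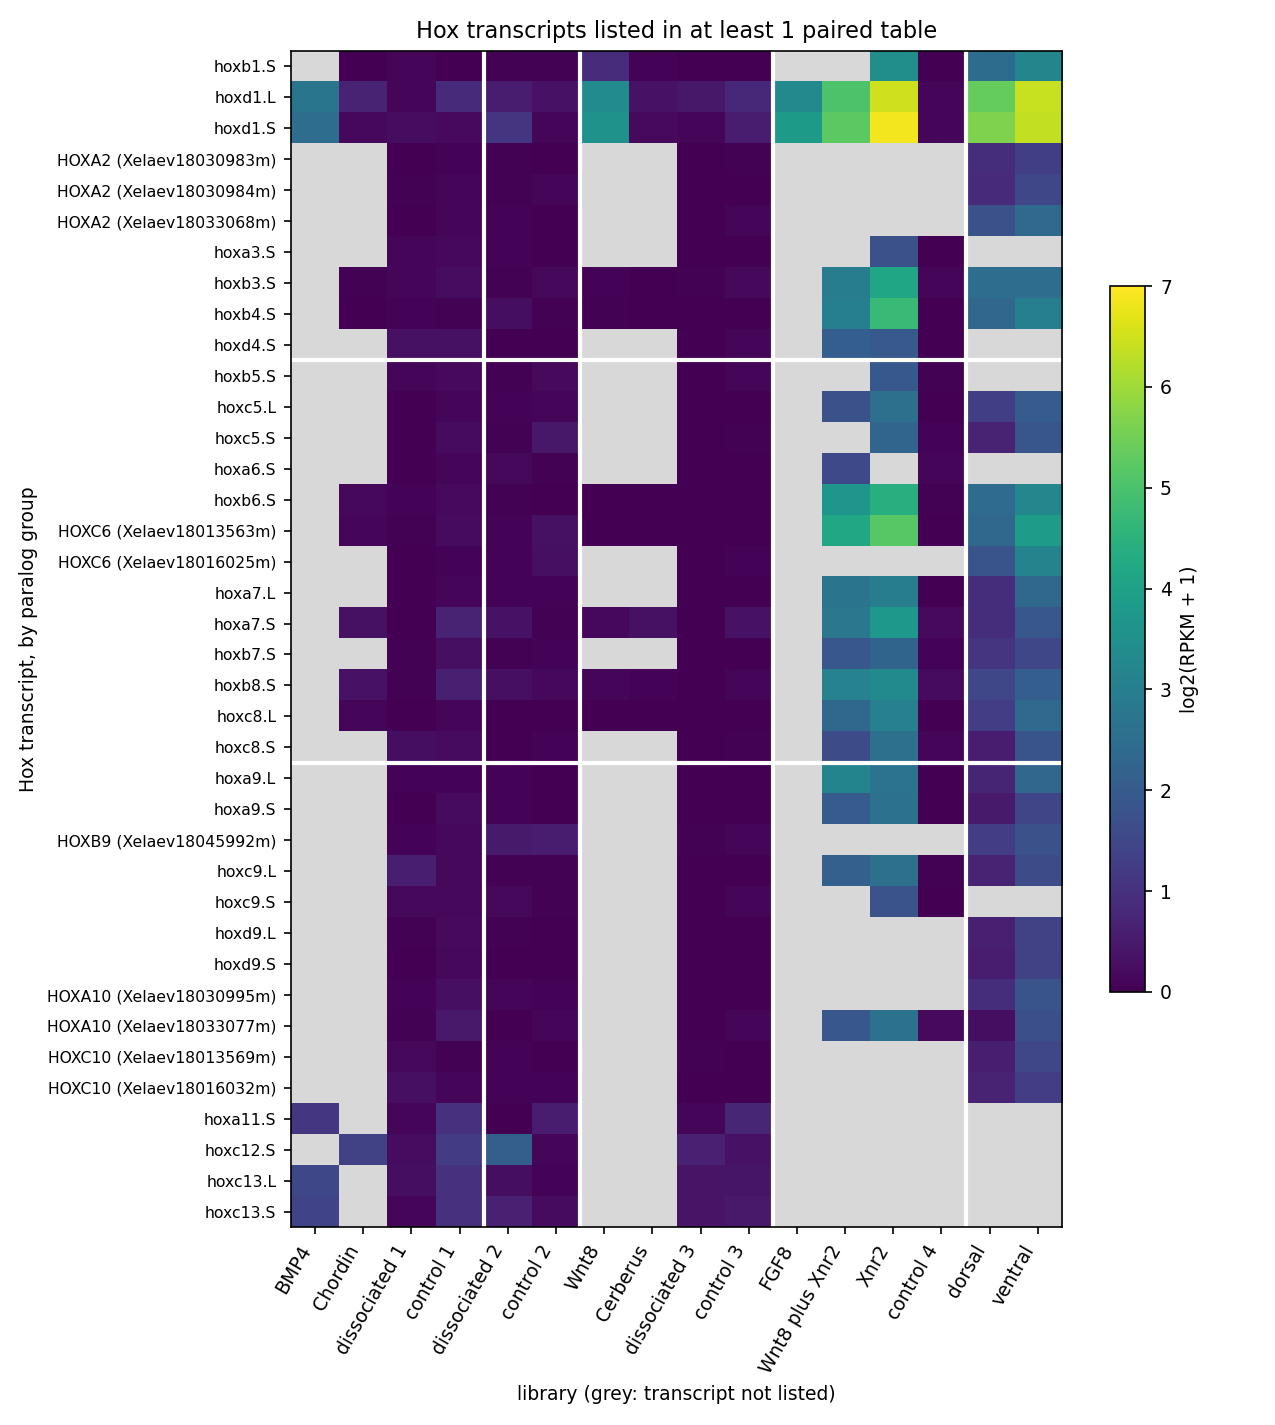
Level of 38 of the 40 Hox transcripts listed in at least 1 paired table (rows, by paralog group, white lines after groups 4 and 8) in the 16 libraries (columns, white lines between control sets), as log2(RPKM + 1). Grey marks a transcript not listed for that library. The Xnr2, Wnt8 plus Xnr2, dorsal and ventral columns hold nearly all levels above background, and the rows of hoxd1.L and hoxd1.S are also raised in the BMP4, Wnt8 and FGF8 columns.

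hoxd1, of paralog group 1, whose genes are the earliest Hox genes of the vertebrate embryo, was raised by single BMP4, Wnt8 and FGF8 injections. hoxd1.L had 5.55 RPKM in BMP4 caps, 9.46 in Wnt8 caps and 8.91 in FGF8 caps, against 0.772, 0.263, 0.722 and 0.0692 in controls 1 to 4. hoxd1.S had 4.61, 10.98 and 13.05 RPKM in the same injected libraries, against 0.133, 0.0663, 0.439 and 0.0696 in controls 1 to 4. For both copies each of these injected libraries lay above every control and every dissociated library.

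In BMP4 caps, 7 members were listed and 4 were called higher, where limma called 0.417% of 16048 transcripts higher and 0.0125% lower. hoxd1.L was higher by 2.20 ± 0.35 (SE) on the log2(RPKM + 1) scale, with an adjusted p of 0.0345, and hoxd1.S by 2.27 ± 0.37, with an adjusted p of 0.0452. This scale understates the change of low transcripts and also compresses their spread. The SE comes from control and dissociated caps alone, since each injection has 1 library. For members near 0 in those caps, SE and p-value do not measure the spread at the level of an injected library. This holds for every injection. By reads, hoxd1.L was 7.18-fold over its own control 1, with a 95% counting interval of 5.05 to 10.5. With the control set as a replicate block, no call held in BMP4 caps: the adjusted p was 0.17 for hoxd1.L and 0.228 for hoxd1.S. Both hoxd1 calls stood without control 1. Without dissociated 2 the call of hoxd1.S stood (adjusted p = 0.0148) and that of hoxd1.L was lost (adjusted p = 0.0818). Without control 2, 3 or 4 or dissociated 1 or 3 neither copy was called, at adjusted p-values of 0.0577 to 0.149, and 2 of the 4 calls were left. Mesoderm transcripts moved with this result: their list (T, TBX6, MSGN1, MYF5, MYOD1 and others) summed to 612 RPKM in BMP4 caps (17 of 29 listed), against 5.74 in control 1 (29 listed), and limma called 14 of the 17 tested higher. No MSGN1 or MYF5 transcript is listed for BMP4, and of MYOD1 only myod1.S, with 1.81 RPKM against 0.358 in control 1. Of the 3 endoderm transcripts tested 2 were called higher, with a sum of 38.3 RPKM in BMP4 caps (3 of 8 listed), against 4.76 in control 1 (8 listed). Of the 10 anterior neural plate transcripts 2 were called higher and 2 lower. The 2 higher ones were mix1.L (54.6 RPKM against 0.110 in control 1) and mix1.S (62.0 against 0). They carry the human symbol OTX2 but a frog name of the Mix family, and no otx or crx transcript rose. The part of these tissues in the Hox result was not tested.

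The other 3 members listed for BMP4 were the posterior transcripts that control 1 already carried. hoxc13.L had 1.88 RPKM in BMP4 caps against 1.02, 0.0574 and 0.314 in controls 1 to 3, and hoxc13.S had 1.67 RPKM against 1.00, 0.145 and 0.381. hoxa11.S had 1.15 RPKM against 1.02, 0.459 and 0.683. None of the 3 was called (adjusted p = 0.906 each). The 1 member listed for Chordin, hoxc12.S, had 1.57 RPKM in Chordin caps against 1.38 in its own control 1 and was not called (adjusted p = 0.983), where limma called 0.0128% of 15583 transcripts higher; it did not reach an unadjusted p under 0.05, and voom called none either.

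In Wnt8 caps, 4 members were listed and 3 were called higher, where limma called 0.0758% of 15823 transcripts higher. hoxd1.S was higher by 3.36 ± 0.38 (adjusted p = 0.033) and hoxd1.L by 2.88 ± 0.36 (adjusted p = 0.0339) on the log2(RPKM + 1) scale. Over control 3, hoxd1.S was 25.02-fold by reads, with a counting interval of 17.6 to 36.9. The paralog group 1 gene hoxb1.S, listed in a table without the minimum, had 0.866 RPKM in Wnt8 caps against 0, 0.0329, 0.0136 and 0 in controls 1 to 4. With the replicate block the adjusted p was 0.292 for each of the 3 called members. Leaving out control 2, control 4, dissociated 1 or dissociated 3 left 0 calls, leaving out dissociated 2 left 1, hoxd1.S, and leaving out control 3 left 2, of which hoxd1.S was 1. None of the 3 mesoderm transcripts tested was called in Wnt8 caps, and 0 had an unadjusted p under 0.05. Of the 13 neural plate transcripts 0 were called and 4 had an unadjusted p under 0.05, with a sum of 227 RPKM in Wnt8 caps, against 114 in control 3.

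In FGF8 caps, 3 members were listed and all 3 were called higher, where limma called 0.168% of 14315 transcripts higher. hoxd1.S was higher by 3.59 ± 0.39 (adjusted p = 0.0131) and hoxd1.L by 2.80 ± 0.36 (adjusted p = 0.0322). By reads, hoxd1.S was 187-fold over control 4, with a counting interval of 72.9 to 689 that rests on 4 control reads. The adjusted p with the replicate block was 0.269 for hoxd1.S and 0.218 for hoxd1.L. Leaving out control 2 left 0 calls, and leaving out control 3 or any 1 dissociated library left 1, hoxd1.S. Of the 4 mesoderm transcripts tested in FGF8 caps 2 were called higher, and the list summed to 58.4 RPKM there (4 of 29 listed), against 6.81 in control 4 (26 listed). Of the 7 neural plate transcripts tested 2 were called higher and 5 had an unadjusted p under 0.05, and they summed to 197 RPKM in FGF8 caps, against 13.3 in control 4. The part of these tissues in the Hox result was not tested.

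Chordin and Cerberus caps lay within the control range for hoxd1. hoxd1.L had 0.612 RPKM in Chordin caps and 0.276 in Cerberus caps, inside the range of 0.0692 to 0.772 RPKM of the controls. hoxd1.S had 0.110 and 0.139 RPKM, also inside its control range of 0.0663 to 0.439. No member is listed for Cerberus at the 1 RPKM minimum, and limma called 0.069% of 15941 transcripts higher and 0.00627% lower there. Without the minimum 12 members were tested for Cerberus, of which 0 were called and 0 had an unadjusted p under 0.05, and voom called 0.

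**Figure D2:**
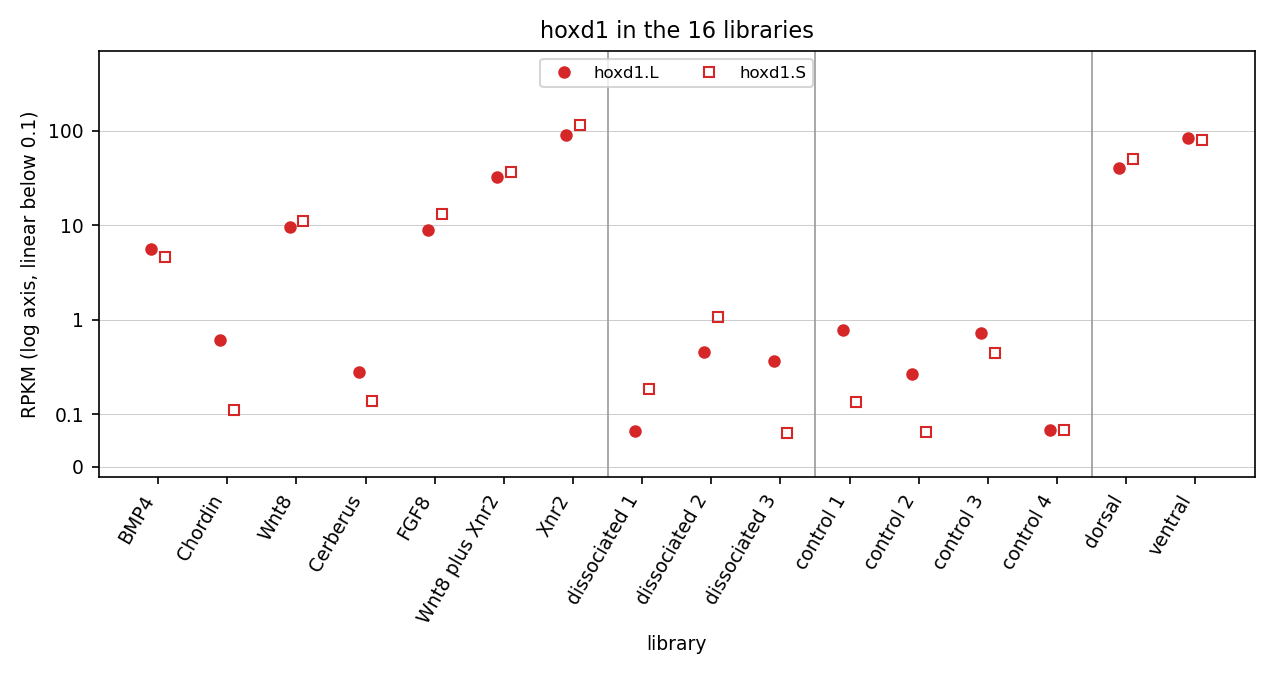
RPKM of hoxd1.L and hoxd1.S (points) in each of the 16 libraries, on a log axis that is linear below 0.1, with grey lines between injected caps, dissociated caps, control caps and the dorsal and ventral libraries. BMP4, Wnt8 and FGF8 caps lie between 4.61 and 13.05 RPKM, the Xnr2 and ventral libraries reach 115.5 and 84.5, and no control cap exceeds 0.772.

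Xnr2 caps carried Hox transcripts from group 1 to group 10. The level summed over the listed members was 444 RPKM in Xnr2 caps (25 listed), against 1.11 in control 4 (26 listed). All 25 listed members were called higher, where limma called 3.69% of 14769 transcripts higher and 0.447% lower. Their median difference was 2.92 on the log2(RPKM + 1) scale, against -0.14 over all transcripts tested, but the minimum of 1 RPKM admitted them only because they were high in Xnr2 caps. Each lay above every control, from 10.9-fold over the highest control for hoxc5.S to 683-fold for hoxb4.S. The fold of hoxb4.S rests on 2 reads in control 1, its highest control. Of the 25 members, 5 had no read in control 4. The SEs and p-values of the 25 rest on control and dissociated caps near 0, not on spread at the level of Xnr2 caps. The largest adjusted p was 0.000707, for hoxd4.S, and with the replicate block it was 0.00845, for hoxa7.S.

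Mesoderm RNA moved with this result. Transcripts of the mesoderm list summed to 3400 RPKM in Xnr2 caps (24 of 29 listed), against 6.81 in control 4, and limma called 22 of the 22 tested higher. Those near 0 in control 4 passed the minimum only because they were high in Xnr2 caps, so this count supports nothing by itself. In the same caps, 4 of 6 neural plate transcripts tested and 1 of 4 endoderm transcripts were called higher, and of 8 anterior neural plate transcripts 2 were called higher and 2 lower. The 2 higher ones were again mix1.L (23.8 RPKM against 0 in control 4) and mix1.S (17.5 against 0.0299), and no otx or crx transcript rose. Whether the Hox levels follow the number of such cells or the RNA per cell cannot be told apart in pooled tissue, and the part of these tissues in the Hox result was not tested.

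Among paralog groups 1 to 4 in Xnr2 caps, hoxd1.S was the highest member of any group with 115.5 RPKM against 0.133, 0.0663, 0.439 and 0.0696 in controls 1 to 4, a log2 difference of 6.64 ± 0.38 (adjusted p = 1.12e-05). hoxd1.L followed with 89.1 RPKM, a difference of 5.98 ± 0.35. Those copies together made up 46.1% of the summed Hox level. hoxb4.S had 25.6 RPKM against 0.0374, 0.0279, 0 and 0.0147 in controls 1 to 4, and was higher by 4.70 ± 0.19 (adjusted p = 2.18e-06). hoxb3.S had 16.3 and hoxb1.S 10.1 RPKM, where no control exceeded 0.169 for either. hoxd4.S and hoxa3.S were low, at 2.88 and 2.31 RPKM. For hoxb1.S control 4 had no read, so its fold over that control was at least 194, taking 3 reads in control 4 as the limit.

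Among groups 5 to 8, which pattern the trunk, the HOXC6 model Xelaev18013563m led with 35.2 RPKM in Xnr2 caps against 0.144, 0.233, 0.0148 and 0.0188 in controls 1 to 4. It was higher by 5.04 ± 0.20 (adjusted p = 2.23e-06). hoxb6.S had 19.97 RPKM against 0.139, 0.0172, 0.0143 and 0.0362 in controls 1 to 4, and was higher by 4.32 ± 0.18. Of the members listed for Xnr2, only the hoxd1 copies were higher than the HOXC6 model. hoxa7.S had 12.2, hoxb8.S 9.15, hoxc8.L 7.21, hoxa7.L 6.85, hoxc8.S 4.99, hoxc5.L 4.94, hoxc5.S 3.90, hoxb7.S 3.77 and hoxb5.S 2.84 RPKM in Xnr2 caps. The highest control value of any of these 9 was 0.624, for hoxa7.S in control 1.

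The listed members of groups 9 and 10 lay between 2.47 and 5.36 RPKM, and no member of groups 11 to 13 is listed for Xnr2. Hox names without a human symbol, which are not counted as members, went higher in the same caps. Of these, hoxa10.L had 10.1, hoxb9.S 8.99, hoxc10.S 3.11 and hoxc10.L 2.54 RPKM. hoxa9.L had 5.36 RPKM in Xnr2 caps against 0.0388, 0, 0.012 and 0.0152 in controls 1 to 4, and was higher by 2.65 ± 0.15 (adjusted p = 1.09e-05). The HOXA10 model Xelaev18033077m had 5.12, hoxa9.S 5.06, hoxc9.L 5.03 and hoxc9.S 2.47 RPKM. The HOXA10 model had the highest control value among these, 0.394 RPKM in control 1.

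Caps labelled Wnt8 plus Xnr2 carried nearly the same members at lower levels. All 21 listed members were called higher than in control caps, where limma called 3.5% of 14988 transcripts higher and 0.24% lower, and their sum was 177 RPKM, against 1.11 in control 4. The HOXC6 model Xelaev18013563m was higher by 4.07 ± 0.19 (17.4 RPKM), hoxd1.S by 5.001 ± 0.37 (36.4 RPKM), hoxb6.S by 3.60 ± 0.17 (11.8 RPKM) and hoxa9.L by 3.14 ± 0.16 (7.93 RPKM). The median over the listed members was 2.63 against -0.07 over all transcripts tested, with the same reservation about the minimum. The largest adjusted p was 0.00092, for hoxc9.L, and 0.0256 with the replicate block, for hoxa7.S. The mesoderm list summed to 3453 RPKM here, and limma called 23 of its 23 tested transcripts higher, beside 4 of 6 neural plate and 3 of 5 endoderm transcripts. The reservation about the minimum holds for transcripts of these lists near 0 in control 4. What part these tissues had in the Hox result was not tested.

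The library labelled Wnt8 plus Xnr2 was set against the Xnr2 library as 1 library against 1, so there is no test and the intervals cover counting error only. Of the 20 members listed in both, 18 were lower in Wnt8 plus Xnr2 caps with an interval below a ratio of 1, where 27.3% of 14443 transcripts were. A ratio of 0.5 or less was found for 10 of the 20, where 2.61% of 15376 transcripts had one. The median ratio was 0.514 over the members and 1.06 over all transcripts. Summed over the 20 members, the level was 174.8 RPKM in Wnt8 plus Xnr2 caps, against 422.1 in Xnr2 caps. No member passed 4-fold in the design's count, where 0.0911% of transcripts were lower and 0.143% higher by that much.

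Among the members listed in both, the lower levels were most marked at the anterior end of the clusters. The listing limits this reading: a member near 0 in control 4 is listed only at about 2 RPKM or more in Wnt8 plus Xnr2 caps. The compared members of groups 9 and 10 had 5.03 to 5.36 RPKM in Xnr2 caps. They could therefore not show a ratio as low as that of hoxb4.S. Members of groups 1 to 4 had a median ratio of 0.315 (7 members), those of groups 5 to 8 of 0.558 (9 members) and those of groups 9 and 10 of 0.646 (4 members). hoxb4.S had 7.08 RPKM against 25.6, a ratio of 0.277 (0.249 to 0.309), and hoxd1.S 36.4 RPKM against 115.5, a ratio of 0.315 (0.299 to 0.332). The HOXC6 model Xelaev18013563m had 17.4 RPKM against 35.2, a ratio of 0.494 (0.453 to 0.537). At the other end, hoxb8.S had 7.65 RPKM against 9.15, a ratio of 0.836 (0.734 to 0.953).

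A single member was higher in the Wnt8 plus Xnr2 library: hoxa9.L had 7.93 RPKM against 5.36 in Xnr2 caps, a ratio of 1.48 (1.28 to 1.72), while its S copy had 3.12 against 5.06, a ratio of 0.617 (0.513 to 0.740). hoxd4.S had 3.26 RPKM against 2.88, and its interval of 0.803 to 1.61 held 1. Across the 20 members the ratio was larger at higher paralog numbers (Spearman rho 0.67). This is a description, since the members share both libraries and several are L and S copies. The listing minimum, which hides low ratios of low members, bears on this rho as well. hoxb1.S is not listed for Wnt8 plus Xnr2. If the 1 RPKM minimum is the reason, its level there was below 2 RPKM, against 10.1 in Xnr2 caps, a ratio under 0.199. hoxa3.S, hoxb5.S, hoxc5.S and hoxc9.S are likewise listed for Xnr2 alone and hoxa6.S, at 1.93 RPKM, for Wnt8 plus Xnr2 alone. The mesoderm list had a median ratio of 0.908 over 23 transcripts between these libraries, with 2 at 0.5 or less, and the 4 endoderm transcripts compared were each higher by 2-fold or more in the Wnt8 plus Xnr2 library. The anterior neural plate list had a median ratio of 3.50 over 7 transcripts, of which 0 were lower and 4 were higher by 2-fold or more. That list also holds mix1.L (33.5 against 23.8 RPKM) and mix1.S (27.8 against 17.5), through their human symbol OTX2. The neural plate list had a median ratio of 1.53 over 6. The part of these tissues, or of the unequal nodal2.L levels, in the Hox ratios was not tested.

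**Figure D3:**
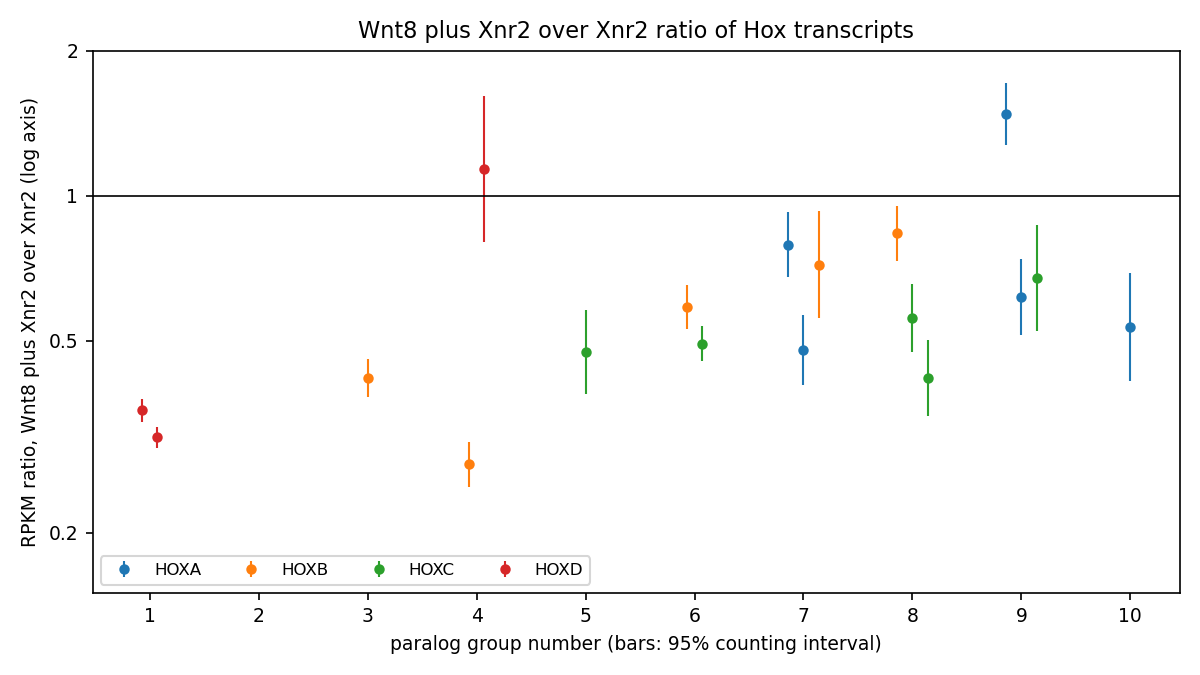
RPKM in Wnt8 plus Xnr2 caps over RPKM in Xnr2 caps (log axis) for 18 of the 20 Hox transcripts listed in both, by paralog group number and coloured by cluster, with 95% counting intervals. hoxd1.S lies at 0.315 and hoxd1.L at 0.359, later groups lie between 0.419 and 0.836 except hoxb4.S at 0.277, hoxd4.S at 1.13 and hoxa9.L at 1.48, and of the 18 only hoxa9.L has its interval above 1.

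In the divided embryos, Hox transcripts were less abundant in the dorsal library than in the ventral one. Of the 31 members listed, 30 were lower in the dorsal library with a counting interval below a ratio of 1, where 22% of 14929 transcripts were. A ratio of 0.5 or less was found for 20 of the 31, where 3.61% of 14996 transcripts had one, and the median ratio was 0.411 over the members against 0.993 over all transcripts. Their level summed to 152 RPKM in the dorsal library, against 306 in the ventral library. None passed 4-fold in the design's count, which asks for 5 RPKM in the higher library and where 0.267% of transcripts were lower and 0.44% higher by that much. With 1 library on each side there is no replicate check.

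Group 1 was the most abundant in both libraries and differed by about 2-fold. hoxd1.L had 39.8 RPKM in the dorsal library against 84.5 in the ventral one, a ratio of 0.471 (0.444 to 0.499), and hoxd1.S had 49.5 against 80.4, a ratio of 0.616 (0.583 to 0.651). hoxb1.S had 4.53 RPKM against 8.09, a ratio of 0.56. hoxb3.S was the 1 member whose interval held 1: it had 4.69 RPKM in the dorsal library against 4.62 in the ventral one, a ratio of 1.02 (0.878 to 1.17). hoxb4.S, its neighbour by number, had 3.99 RPKM against 7.11, a ratio of 0.562 (0.470 to 0.671). The 3 HOXA2 models had ratios of 0.453 to 0.608 at no more than 4.23 RPKM.

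Ratios were lower still for several posterior members. The HOXC6 model Xelaev18013563m had 4.20 RPKM against 13.52, a ratio of 0.311 (0.259 to 0.371), and the HOXC6 model Xelaev18016025m 2.51 against 7.84, a ratio of 0.320 (0.253 to 0.402). hoxa7.L had 0.887 RPKM against 4.08, a ratio of 0.217 (0.151 to 0.306), and hoxc8.S 0.446 against 2.50, a ratio of 0.178 (0.117 to 0.263). hoxa9.L had 0.667 RPKM against 3.95, a ratio of 0.169 (0.113 to 0.246). The lowest ratio was that of the HOXA10 model Xelaev18033077m, 0.0906 (0.0320 to 0.209), from 6 reads in the dorsal library against 61 in the ventral one.

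Median ratios were 0.56 for groups 1 to 4 (10 members), 0.323 for groups 5 to 8 (11 members) and 0.287 for groups 9 and 10 (10 members), and ratio and paralog number had a Spearman rho of -0.57 over the 31 members, as a description of members that share both libraries. Point ratios also differed between clusters at like numbers in groups 6 to 9, as a description, though some counting intervals overlapped. In group 1 the ratios did not part this way: hoxb1.S, at 0.56, lay between hoxd1.L at 0.471 and hoxd1.S at 0.616. All 7 HOXB members, from group 1 to group 9, had ratios of 0.524 to 1.02, while HOXC members of groups 5 to 10 had ratios of 0.178 to 0.467 and HOXA members fell as low as 0.0906. hoxb8.S had 1.79 RPKM against 3.26, a ratio of 0.55 (0.416 to 0.723). Beside it hoxc8.L had 0.330 (0.248 to 0.435) and hoxc8.S 0.178 (0.117 to 0.263). The HOXB9 model Xelaev18045992m had a ratio of 0.611 (0.434 to 0.853). Beside it hoxc9.L had 0.289 (0.154 to 0.515) and hoxa9.S 0.244 (0.147 to 0.389). The intervals of hoxb8.S and hoxc8.L, and of the HOXB9 model and hoxc9.L, overlapped.

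Tissue markers also differed between the dorsal and ventral libraries. The mesoderm list summed to 1061 RPKM in the dorsal library, against 1710 in the ventral one, and 19 of its 28 transcripts were lower dorsally, 10 of them at a ratio of 0.5 or less. Within that list t.L, the L copy of brachyury, had 77.3 RPKM against 191 and msgn1.L had 47.9 against 108, while the muscle regulator myf5.L had 39.9 against 6.14. Of the 13 neural plate transcripts 0 were lower dorsally, and of the 15 epidermal transcripts 13 were. Over all 14996 transcripts the median ratio was 0.993, so a ratio under 1 is common by itself, while 3.61% had a ratio of 0.5 or less. The part of these tissues in the Hox ratios was not tested.

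**Figure D4:**
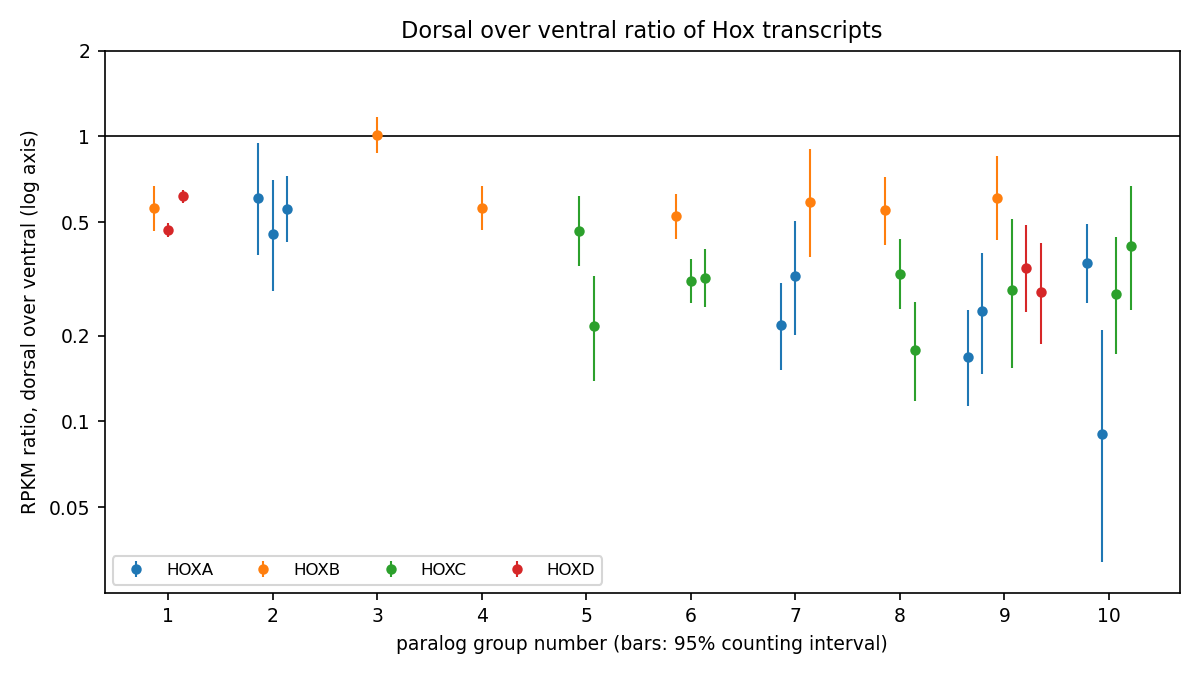
RPKM in the dorsal library over RPKM in the ventral library (log axis) for 29 of the 31 Hox transcripts listed, by paralog group number and coloured by cluster, with 95% counting intervals. Members of groups 1 to 4 lie between 0.453 and 0.616 except hoxb3.S at 1.02, HOXA, HOXC and HOXD members of groups 5 to 10 lie between 0.0906 and 0.467, and HOXB members stay at or above 0.524.

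The Hox genes of Xnr2 caps and of the gastrula were in a like order of level. Of the 25 members listed for Xnr2, 21 (84%) are listed for the dorsal and ventral libraries, which is 67.7% of the 31 listed there. Over all transcripts these shares were 85.3% and 89.4%. If 5 Hox names without a human symbol, equal in length to 1 member each, are read as those members, 26 are listed in both, 86.7% of 30 and 83.9% of 31. Across those 21, levels in Xnr2 caps and in the ventral library had a Spearman rho of 0.887, and with the dorsal library of 0.799, as descriptions over transcripts that include both copies of several genes. hoxd1 led in all 3. The median member was 2.00 times as high in Xnr2 caps as in the ventral library, with hoxd1.L closest to parity at 1.05 and hoxa7.S farthest at 4.49. In the Wnt8 plus Xnr2 library the median over 19 members was 1.29 times the ventral level, with hoxb8.S highest at 2.35, while hoxd1.S was lower, at 36.4 RPKM against 80.4. These are ratios between different tissues, with 1 library each.

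L and S copies were compared where both are listed, which leaves out pairs with 1 copy below the minimum. In Xnr2 caps the L over S ratio of 7 such pairs ran from 0.561 for hoxa7 to 2.04 for hoxc9. It ran from 0.803 for hoxd1 to 3.14 for hoxc8 in the dorsal library and from 0.951 for hoxd9 to 2.22 for hoxa9 in the ventral one. Named HOXB genes were listed by their S copies alone. Of the 8 named HOXB S copies, 7 are listed in a paired table, whereas 0 of the 8 named L copies are. The S copies reached 25.6 RPKM in Xnr2 caps, where the L copies have no value. In the 6 libraries of the full table the highest values were close, 0.541 RPKM for S copies and 0.479 for L copies. For the other clusters 9 of 25 named L copies and 14 of 25 named S copies are listed, and hoxa3, hoxa6, hoxa11, hoxc12 and hoxd4 likewise have the S copy alone. How reads were shared between near-identical copies is not given in the sources used here, so differences between copies are uncertain.

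The known regulators of Hox genes included the Cdx factors, which bind Hox clusters and promote trunk and posterior members, and evx1, which neighbours the HOXA cluster. In Xnr2 caps 14 of the 27 tested regulator transcripts were called higher and 0 lower. In Wnt8 plus Xnr2 caps 9 of 23 were called higher and in BMP4 caps 7 of 23. For FGF8 caps it was 4 of 23 and for Wnt8 caps 1 of 22. Over all transcripts the shares called higher were 3.69%, 3.5%, 0.417%, 0.168% and 0.0758% in the same order. Regulators near 0 in their own control passed the minimum only because they were high in the injected library. For these the counts support nothing by themselves. cdx4.L had 218 RPKM in Xnr2 caps, 51.8 in FGF8 caps and 41.8 in BMP4 caps, against 0.62 ± 0.97 in control caps (SD, n = 4), and was called in each. With the replicate block the adjusted p of cdx4.L in FGF8 caps was 0.205, and with voom that in BMP4 caps was 0.0715. cdx2.L had 209, 17.0 and 63.7 RPKM in the same 3 libraries, against 0.91 ± 0.78 in control caps (SD, n = 4), and was also called in each, but in FGF8 caps the adjusted p was 0.318 with the block and 0.0739 with voom. No member of groups 2 to 10 is listed for BMP4 caps or for FGF8 caps. In Wnt8 caps cdx4.S had 17.1, cdx4.L 12.2 and cdx2.L 8.08 RPKM, and no control exceeded 2.405 for any of them. There cdx1.S, at 1.67 RPKM, lay within its control range. The GBX2 models Xelaev18044831m and Xelaev18044833m had 7.02 and 6.67 RPKM in Wnt8 caps, and no control exceeded 1.91 for either. None of these Cdx and GBX2 transcripts was called in Wnt8 caps. evx1.L was the 1 regulator called in Wnt8 caps, with 7.44 RPKM against 0.43 ± 0.33 in control caps (SD, n = 4; adjusted p = 0.033), and with the replicate block the adjusted p was 0.292.

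Cdx transcripts took the same side as the Hox members in both comparisons of 1 library with 1. cdx4.L had 82.1 RPKM in Wnt8 plus Xnr2 caps against 218 in Xnr2 caps, a ratio of 0.377 (0.367 to 0.387), and 72.0 in the dorsal library against 214 in the ventral one, a ratio of 0.337 (0.326 to 0.348). evx1.L had ratios of 0.297 and 0.320 in these comparisons. The L copy of the retinoic acid synthase gene aldh1a2 took the other side: aldh1a2.L had 106 RPKM in Wnt8 plus Xnr2 caps against 41.8 in Xnr2 caps, a ratio of 2.54 (2.46 to 2.62), and 44.4 in the dorsal library against 17.6 in the ventral one, a ratio of 2.52 (2.40 to 2.66). Its S copy had ratios of 2.66 (2.58 to 2.75) between the caps and 1.11 (1.06 to 1.17) between the dorsal and ventral libraries. The retinoic acid degrading enzyme gene cyp26a1.L had ratios of 0.765 and 0.761. Its S copy had ratios of 0.860 and 0.973, the second with an interval of 0.939 to 1.008 that held 1. The CYP26C1 models of the same enzyme family were far higher dorsally. LOC100489980-like.L had a dorsal over ventral ratio of 22.8 (15.2 to 35.9), and LOC100489980-like.S of 19.75 (13.2 to 30.8).

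Among the homeodomain partners of Hox proteins, meis1.L was the 1 transcript called by limma on log2(RPKM + 1), to which the counts below refer. With voom, pbx2.S was also called in Wnt8 plus Xnr2 caps, with a log2 difference of 1.32. It had 59.3 RPKM there, against 24.1 ± 5.4 in control caps (SD, n = 4). The share called higher over all transcripts was 3.69% in Xnr2 caps and 3.5% in Wnt8 plus Xnr2 caps. Of the 9 PBX, MEIS and PKNOX transcripts tested in Xnr2 caps, 1 was called higher: meis1.L had 7.32 RPKM against 1.23 ± 0.26 in control caps (SD, n = 4), a difference of 1.91 ± 0.29 (adjusted p = 0.00566; 0.0735 with the replicate block). It was also the 1 called in Wnt8 plus Xnr2 caps, with 6.03 RPKM (adjusted p = 0.0129; 0.114 with the block). None of the partners was called in BMP4, Wnt8, FGF8, Chordin, Cerberus or dissociated caps by limma. An unadjusted p under 0.05 was found for 1 of 10, 1 of 8 and 1 of 9 in BMP4, Wnt8 and FGF8 caps. Over all transcripts it was found for 419 of 16048, 323 of 15823 and 512 of 14315. In Chordin, Cerberus and dissociated caps it was 0 of 10, 1 of 8 and 2 of 8. There the counts over all transcripts were 459 of 15583, 549 of 15941 and 1518 of 15819. pbx2.L had 60.1 RPKM in Xnr2 caps against 29.2 to 36.2 RPKM in the controls and was not called (adjusted p = 0.162).

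The 39 members listed in no paired table covered all 4 clusters, with 7 of HOXA, 10 of HOXB, 9 of HOXC and 13 of HOXD. Apart from hoxd10.L, none of the 39 exceeded 0.740 RPKM in the 6 libraries of the full table, and their levels in the injected caps and in the dorsal and ventral libraries were not analysed here.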

How the data were processed

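The values deposited by the authors are RPKM, on JGI9.1 transcripts per the file headers, with human symbols given by protein comparison. The submitters' processing notes name TopHat2 2.09 and DESeq without their roles; the counting rule is not given in the sources used here. RPKM are not counts, so tests used limma 3.58.1 in R 4.3.3 with a mean-variance trend on log2(RPKM + 1), Benjamini-Hochberg adjustment over all transcripts tested and calls at an adjusted p under 0.05. Tested transcripts averaged at least 1 RPKM over the 6 libraries of the full table (dissociation) or over a treated library and its own control. Each lone injected library was set against controls 1 to 4, with dissociated 1 to 3 as a further group, and is assumed to vary like them; where a control does not list a transcript, the fit drops that control. The FGF8, Xnr2 and Wnt8 plus Xnr2 fits left out names that have no read in the 6-library table. Comparisons of 1 library with 1 have no test. In them a member passes 4-fold when log2(RPKM + 1) differs by that much and the higher library has at least 5 RPKM.

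For each of 24413 transcripts with at least 6 values above 0, one length made all values whole reads (tolerance 0.01 reads). Recovered reads served for exact binomial 95% intervals of a ratio (Clopper-Pearson, counting error only, PCR duplicates included) and for an added voom fit. Where a control had no read, 3 reads were taken as its limit. The median log2 difference over all transcripts was 0.16 in BMP4 caps, 0.10 in Cerberus caps, -0.11 in FGF8 caps and -0.14 in Xnr2 caps.

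Same-numbered control and dissociated libraries, paired by the labels, deviated together (r of 0.584, 0.391 and 0.628 over 15819 transcripts; other pairs -0.480 to 0.131). Values in full are given for members called in a fit or reaching 5 RPKM, others by counts and ranges; 1 gene held in these counts is not reported here by name. The members, lists and tests were chosen with earlier results of these data known. The fits were tested on simulated data. 5 names listed more than once were left out. Coordinates and sequences are not given, since no JGI9.1 genome was used.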

Additional observations from a re-analysis of the deposited data

Results flagged for a closer look

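Of the 24 called members reported here with all 4 controls listed, 5 had 1 control far from the other 3. The cut-off used passes about 1 of 20 groups of normally distributed values. These values rest on few reads, such as 4, 1, 1 and 1 for hoxc8.L in controls 1 to 4. That rate does not apply to them, so no excess can be read from the count. Control 1 was the high library in all 5, with 0.394 RPKM for the HOXA10 model Xelaev18033077m, 0.108 for hoxa3.S, 0.163 for hoxa9.S, 0.541 for hoxb8.S and 0.0757 for hoxc8.L. None of these reached 1 RPKM.

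Hox-named transcripts without a human symbol, which the membership rule does not take, appear in the tables of control 4 and had no read in dissociated 1 to 3 and controls 1 to 3. In Xnr2 caps hoxc6.S had 24.8 RPKM against 0.0554 in control 4, hoxa10.L 10.1 against 0.0594, hoxb9.S 8.99 against 0.159, hoxa2.S 4.25 against 0, hoxc10.S 3.11 against 0 and hoxc10.L 2.54 against 0.0309. In Wnt8 plus Xnr2 caps hoxc6.S had 9.13 RPKM, hoxa10.L 8.08, hoxb9.S 4.61, hoxa2.S 2.58 and hoxc10.L 2.13, against the same controls. The recovered length of 5 of them equals that of 1 member each that has no value in these tables: hoxc6.S that of Xelaev18016025m, hoxa10.L of Xelaev18030995m, hoxb9.S of Xelaev18045992m, hoxa2.S of Xelaev18033068m and hoxc10.L of Xelaev18013569m. Whether they are second names of those members was not tested beyond length. Read as such, 30 members were called higher in Xnr2 caps and 26 in Wnt8 plus Xnr2 caps.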

How the results depend on the processing

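The 25 calls for Xnr2 numbered 18 to 30, and the 21 for Wnt8 plus Xnr2 16 to 26, over all alternatives. The low ends came from summing L and S copies, which left only 18 and 16 Hox entries to test, all of them called. The high ends came from joining names of equal length, which added members to the test. Leaving out 1 control or dissociated library gave 25 and 21 each time, and the replicate block changed no call among them. In every fit of an injection the lone injected library stayed in, so leaving out 1 library does not check it. The minimum had also admitted these 25 and 21 members only because they were high in that library. Of 820 recomputed values of called members, 745 kept their call, 75 lost it and 0 changed sign. Calls for single injections were less stable, and the cause was not tested. The 4 BMP4 calls became 0 with a pseudocount of 0.1, with the replicate block and with voom, 1 with L and S copies summed, and 2 to 4 leaving out 1 library. The 3 Wnt8 calls became 0 with a pseudocount of 0.1, no minimum, summed copies, the replicate block and voom, and 0 to 3 leaving out 1 library. The 3 FGF8 calls became 0 with a pseudocount of 0.1, the replicate block and names without a read kept, 1 with summed copies and voom, and 0 to 3 leaving out 1 library. Dissociated, Chordin and Cerberus caps gave 0 calls in every alternative run, with 0 to 0 leaving out 1 library. Neither comparison of 1 library with 1 had a member past 4-fold (0 each) in any alternative run on it, and no library can be left out there. Each alternative kept an added value of at least 1 RPKM or the minimum of 5 RPKM, which low members rarely pass. By plain ratio of dorsal over ventral, hoxa9.L was at 0.169 and the HOXA10 model Xelaev18033077m at 0.0906. The voom fit, the kept names and the joined names were added after seeing the data.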
